A study of Cavia porcellus with 35 samples.

Results

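The mitochondrial oxidative phosphorylation genes were examined in the medial prefrontal cortex (mPFC) of juvenile guinea pigs at day 40, whose dams, or whose paternal-line ancestors, had been given the synthetic glucocorticoid (sGC) betamethasone or saline (control). The members were taken by gene symbol, ignoring case. A symbol was included if it began with NDUFA, NDUFB, NDUFC, NDUFS, NDUFV, UQCR, COX4 to COX8 or ATP5, or was SDHA to SDHD or CYC1. In all, 69 of the 12100 symbols in the 4 gene tables were members. Each of the 3 female tables held all 69, and the F1 male table held 68, without UQCRQ.

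RNA had been sequenced from mPFC punches of 35 animals, with 1 library per animal. There were 4 control and 4 sGC females in each of the F1, F2 and F3 generations, and 5 control and 6 sGC F1 males. F1 animals were exposed in utero in late gestation. F2 and F3 females descended from F1 and F2 males mated with females outside the experiment, so they were not treated themselves, and their controls descended likewise from saline-treated dams. Females were taken from separate litters, and animals were chosen by the amount and quality of their RNA. Assigned reads ranged from 12819964 to 19551079 per female and from 25697953 to 31763585 per male, of which members took between 0.915% and 1.28%.

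Oxidative phosphorylation takes electrons from NADH and succinate through complexes I and II, passes them by way of complex III and cytochrome c to complex IV, where oxygen is reduced, and uses the resulting proton gradient to make ATP in complex V. Neurons depend on it for most of the ATP that ion pumping and synaptic transmission consume. Most subunits are encoded in the nucleus, but a few are encoded by mitochondrial DNA. None of the latter were analysed here, and every member is nuclear-encoded. By role, 6 members were core subunits of complex I, 22 were its accessory subunits, 3 belonged to complex II, 7 to complex III, 13 to complex IV and 9 to complex V. A further 9 were assembly factors or other factors with such a prefix. Whether reads were shared between members and their processed pseudogenes or paralogs cannot be read from the tables.

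The labelled tissue was checked against markers. Summed over each list, markers of cortical excitatory neurons ranged from 2618 to 8048 CPM (reads scaled to 1000000 per library) in the animals. Those of the paraventricular nucleus, which the extraction label names in place of the cortex, ranged from 6.58 to 19.3 CPM. Only 4 of the 7 paraventricular markers listed were counted in F1 and F2 females and F1 males, and 3 in F3 females. Of 8 cortical excitatory markers 7 were counted, so the sums leave some markers out. Libraries stood apart in the F1 females. Controls 1 and 4 were high in striatal markers, whose sum ranged from 639 to 2796 CPM in the controls and from 296 to 688 CPM in the sGC animals, with 5 of 9 called lower. Some other cell markers were called in F1 females too. Of the microglial markers 4 of 5 were called lower, and of the astrocyte markers 3 of 7, against 7.33% of all genes. So were 2 of 7 inhibitory neuron markers and 2 of 7 upper-layer markers. In each of these lists 3 of 7 markers were above 0, with medians of -0.17 and -0.02. Markers of cortical excitatory neurons were above 0 in 7 of 7 cases (median log2 fold change 1.91) and those of oligodendrocytes in 0 of 7 (-0.73), with 0 called in either list. In the F3 females, the sum of striatal markers ranged from 370 to 1073 CPM in the controls, with control 3 the highest. It ranged from 244 to 515 CPM with sGC, and 0 of 9 striatal markers were above 0 (median -0.74), with 0 called. Markers of cortical excitatory neurons were above 0 there in 6 of 7 cases (median 0.50) and those of oligodendrocytes in 6 of 6 (0.39), with 0 called in either list. Of the inhibitory neuron markers 1 of 6 was called higher and 0 lower. Only 2 of these 6 were above 0 (median -0.33), and 2 had every sGC animal below every control. In sGC F1 males, 2 of 7 inhibitory neuron markers were called lower, against 3.48% of all genes. Oligodendrocyte markers were higher in these males, where 7 of 7 passed the test (median log2 fold change 0.96). In F2 females their median was 1.09, with 7 of 7 above 0 and 0 called, while upper-layer markers had a median of -0.72 (0 of 7 above 0, 0 called) and deep-layer markers one of 0.51 (6 of 6 above 0, 1 called). In bulk tissue, fewer cells of a type and less RNA per cell cannot be told apart.

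Differences between sGC and control were tested in each table with edgeR's quasi-likelihood test over all genes, with p-values adjusted for the number of genes tested (Benjamini-Hochberg FDR), and a gene was called at an FDR under 0.05. Levels are given as CPM scaled by TMM, which corrects library totals for composition. They are compared only between animals of a table, since the tables were counted separately. All members passed the filter on low counts in every table that listed them, and the lowest count of any member in any animal was 13 reads.

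In F1 females, 6 members fell with sGC and none rose. They were NDUFA4L2, the complex I subunits NDUFA3, NDUFA2 and NDUFB7, the complex III subunit UQCRQ and the complex I assembly factor ATP5SL. These were 8.70% of the 69 members, while 16.5% of all 11268 tested genes were called, 9.21% as higher and 7.33% as lower. At an unadjusted p under 0.05, there were 21 members, or 4 higher and 17 lower, against 34.2% of all genes (16.4% higher and 17.8% lower). The median log2 fold change of members was -0.03, equal to the -0.03 over all genes tested, and 30 of 69 members lay above 0, against 45.5% of all genes.

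NDUFA4L2, a hypoxia-inducible relative of the complex IV subunit NDUFA4, had the lowest log2 fold change. It stood at 8.05, 7.19, 8.15 and 9.53 CPM in the controls, and at 6.05, 5.31, 5.33 and 5.88 CPM in the sGC animals. Every sGC animal lay below every control, and the mean was 8.23 ± 0.97 CPM in controls against 5.64 ± 0.38 CPM with sGC (SD, n = 4 each). The log2 fold change was -0.54 (SE 0.12, edgeR FDR = 0.0216). Fewer reads lay behind this gene than behind most members, with 77 to 145 reads per animal. In brain, NDUFA4L2 is known as a gene of pericytes, the contractile cells around capillaries. Of the 7 pericyte markers tested in F1 females, a list added after the values had been seen, 0 were called, with PDGFRB at the lowest edgeR FDR of 0.0586, and 2 had an unadjusted p under 0.05. Their summed level ranged from 281 to 299 CPM in controls and from 237 to 299 CPM with sGC. The part of these cells in the result was not tested.

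Of the accessory subunits of complex I, which surround its catalytic core, 3 of 22 fell (13.6%), against 7.33% of all genes. NDUFA3, a subunit of the membrane arm, stood at 64.1, 65.2, 75.1 and 75.4 CPM in the controls and at 59.7, 51.1, 56.8 and 47.1 CPM with sGC, without overlap. Its log2 fold change was -0.38 (SE 0.09, edgeR FDR = 0.0263). NDUFA2, a subunit of the arm that takes up NADH, stood at 41.3, 42.5, 43.9 and 44.6 CPM in the controls and at 38.01, 36.4, 38.3 and 37.2 CPM with sGC. Its groups likewise stood apart, at a log2 fold change of -0.20 (SE 0.05, edgeR FDR = 0.0330).

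NDUFB7, an accessory subunit on the intermembrane-space face of complex I, stood at 102, 92.3, 103 and 105 CPM in controls and at 86.5, 85.5, 90.6 and 79.8 CPM with sGC. The lowest control was close to the highest sGC animal, and the log2 fold change was -0.23 (SE 0.06, edgeR FDR = 0.0350). ATP5SL is named after a subunit of complex V but takes part in building the membrane arm of complex I. Its controls stood at 12.02, 13.5, 14.5 and 14.6 CPM and its sGC animals at 11.6, 11.02, 10.9 and 10.3 CPM, a log2 fold change of -0.32 (SE 0.09, edgeR FDR = 0.0467). UQCRQ, a small subunit of complex III, stood at 131, 143, 150 and 153 CPM in controls and at 128, 125, 127 and 123 CPM with sGC. The sGC animals were close together while the controls spread more widely, and the log2 fold change was -0.20 (SE 0.06, edgeR FDR = 0.0471).

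**Figure D1:**
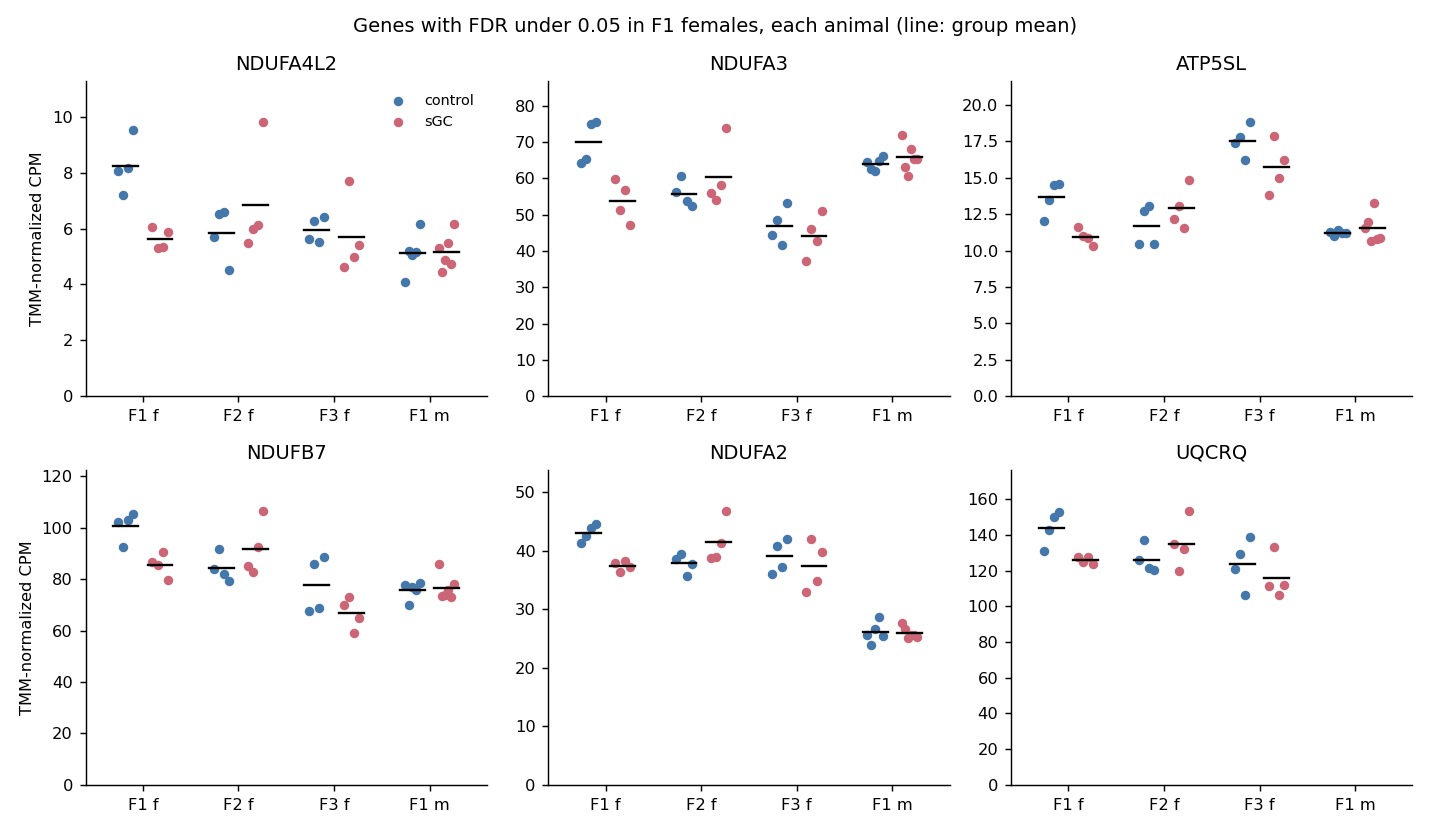
Level of the 6 genes called in F1 females in each animal, as TMM-normalized CPM (vertical axis, from 0) by group (F1, F2 and F3 females, f, and F1 males, m). Points are animals, lines are group means, and levels are to be compared only within a group on the axis. In F1 females all 4 sGC animals lie below all 4 controls in each panel, and in the other groups sGC and control animals overlap.

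These calls rested on few animals. Without controls 1 and 4, the F1 females high in striatal markers, none of the 6 was called (edgeR FDR 0.0614 to 0.186, log2 fold changes -0.42 to -0.17), and the only member called was NDUFAF4, as higher. Of all genes, 15.1% were called without these controls, against 16.5% with them. Leaving out control 3 alone left 0 members called, against 5.42% of all genes. Without control 4 none of the 6 was called, NDUFAF4 was called as higher, and 8.77% of all genes were called. Only NDUFA4L2 was called without sGC animal 2 (14.2% of all genes) or 4 (9.81%). Without sGC animal 1, NDUFA3 and NDUFA4L2 were called (7.32%), and without control 2 these and NDUFB7 (10.8%). Without sGC animal 3 there were 4 members called (10.8%) and without control 1 there were 6 (18.7%), all lower. Most microglial markers, and some of astrocytes, inhibitory neurons and the upper layers, were called lower in the same animals, as given above. Markers of oligodendrocytes lay below 0 and those of cortical excitatory neurons above 0, with 0 called in either list. The part of all these markers in the 6 calls was not tested.

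No member passed edgeR's test upward in F1 females, but upward calls appeared under other settings. DESeq2 called NDUFAF4 and UQCRFS1 upward, edgeR called UQCRFS1 with RLE scaling and 3 members in a single fit of all groups, and NDUFAF4 was called without control 4. The 4 with an unadjusted p under 0.05 were NDUFAF4, which helps to build complex I, at a log2 fold change of 0.27 (SE 0.09), UQCRFS1, the Rieske iron-sulfur protein of complex III, at 0.18 (SE 0.06), NDUFS1, the core subunit that carries several of the iron-sulfur clusters of complex I, at 0.15 (SE 0.06), and UQCRC1, a core protein of complex III, at 0.14 (SE 0.06). UQCRFS1 was the only one whose groups stood apart, with controls from 146 to 167.6 CPM and sGC animals from 167.9 to 184 CPM. The edgeR FDR of the 4 lay between 0.0648 and 0.136.

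Groups stood apart for 15 members in F1 females, 14 with all sGC animals below the controls and 1 with all above. Over all genes, groups stood apart downward for 11.2% and upward for 12%. The 14 lower members included SDHC, a membrane anchor of complex II (log2 fold change -0.17, edgeR FDR = 0.0584), and ATP5G2, which encodes the c subunit of the complex V rotor (-0.19, edgeR FDR = 0.0643).

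The complexes differed in their medians, which are descriptions without a test. In F1 females, 15 of 22 accessory subunits of complex I were lower with sGC (median log2 fold change -0.11). So were 10 of 13 genes of complex IV (-0.10), against 6136 of all 11268 genes tested (-0.03). The medians of these accessory subunits and of complex IV stayed below 0 under each of 4 scalings and without controls 1 and 4. By contrast, the medians were 0.05 for the 6 core subunits of complex I, 0.04 for complex III and 0.03 for complex V. All 3 were below 0, at -0.03, -0.04 and -0.06, when only library totals were used for scaling, and complex V also at -0.01 with upper-quartile scaling. These scalings moved all genes, whose median was then -0.11 and -0.06, so the 3 medians stayed above that of all genes. The summed level of all members was 11894 ± 484 CPM in controls and 11922 ± 678 CPM with sGC (SD, n = 4 each).

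**Figure D2:**
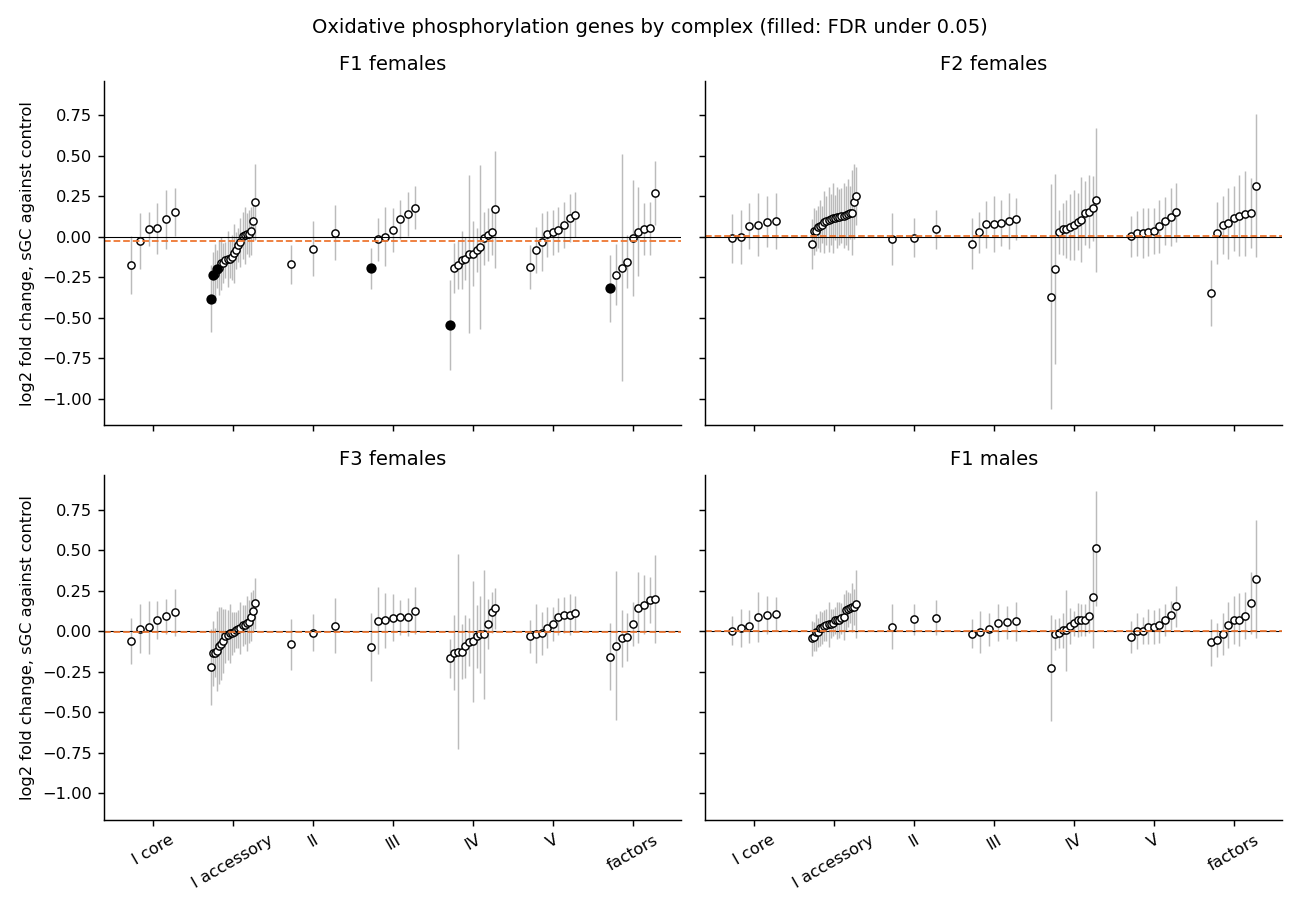
Log2 fold change of sGC against control (vertical axis) of each member, sorted within each role (horizontal axis: complex I core and accessory subunits, complexes II to V, and assembly or other factors), with its 95% confidence interval as a grey bar. Filled points passed an FDR under 0.05 and the dashed line is the median of all genes. Filled points are in the F1 female panel only, and most points of all panels lie within 0.2 of 0.

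In F2 females no member was called by edgeR, against 0.278% of the 11132 genes tested (0.153% higher and 0.126% lower). At an unadjusted p under 0.05 there were 2 members, 1 higher and 1 lower, against 16.1% of all genes (8.72% higher and 7.35% lower). Of all genes DESeq2 called 4.25% and the likelihood ratio test 4.8%. Of the members DESeq2 called 0 and the likelihood ratio test 1, NDUFAF5. This assembly factor of complex I stood at 21.4, 17.3, 18.6 and 20.4 CPM in controls and at 16.1, 15.6, 15.3 and 14.03 CPM with sGC, below the controls in all 4 animals. Its log2 fold change was -0.35 (SE 0.09, edgeR FDR = 0.104). NDUFB2, an accessory subunit of complex I, stood at 83.2, 101, 94.7 and 81.1 CPM in controls and at 104, 99.4, 110 and 116 CPM with sGC, with 1 control inside the sGC range (log2 fold change 0.25, SE 0.08, edgeR FDR = 0.162). NDUFA5, another accessory subunit, had a log2 fold change of 0.22 (SE 0.10, edgeR FDR = 0.339).

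Small positive values prevailed in F2 females. Of 69 members, 60 had a log2 fold change above 0, while 52.1% of all genes did, and the median was 0.09 against 0.01. It ranged from 0.07 to 0.09 under the 8 alternatives other than the omission of an animal. Without sGC animal 3 it was 0.04, with 53 members above 0. The oligodendrocyte and cortical layer markers that differed in these animals are given above, and their part was not tested. Accessory subunits of complex I were above 0 in 21 of 22 cases (median 0.12) and genes of complex V in 9 of 9 (0.04). The members were measured in the same 8 animals, so these counts are not independent observations. The summed level was 11229 ± 430 CPM in controls and 11817 ± 800 CPM with sGC (SD, n = 4 each), and the groups overlapped. The values of sGC animals 3 and 4, at 12658 and 12219 CPM, were above every control, and those of sGC animals 1 and 2 were not. Groups stood apart upward for 1 member, the complex III subunit UQCR10, and downward for 1, NDUFAF5, against 4.08% and 4.02% of all genes.

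In F3 females no member was called by edgeR, DESeq2 or the likelihood ratio test, against 1.34% of the 11420 genes in edgeR (1.07% higher and 0.271% lower). Of all genes, DESeq2 called 5.53% and the likelihood ratio test 5.39%. At an unadjusted p under 0.05 there were 5 members, 4 higher and 1 lower, against 17.3% of all genes (9.2% higher and 8.07% lower). COX7A2L, which joins complexes III and IV into supercomplexes, stood at 88.6, 100, 96.3 and 98.9 CPM in controls and at 83.4, 89.6, 82.3 and 86.4 CPM with sGC. The highest sGC animal was just above the lowest control, and the log2 fold change was -0.17 (SE 0.05, edgeR FDR = 0.151). NDUFAF4 stood at 36.4, 37.1, 40.3 and 35.8 CPM in controls and at 41.7, 39.7, 44.5 and 45.3 CPM with sGC, a log2 fold change of 0.19 (SE 0.06, edgeR FDR = 0.157). NDUFA4, a complex IV subunit first assigned to complex I, had every sGC animal (277 to 318 CPM) above every control (264 to 276 CPM), at a log2 fold change of 0.14 (SE 0.06, edgeR FDR = 0.240). Groups also stood apart upward for NDUFS1 and for ATP5A1, the catalytic-head alpha subunit of complex V, 3 members in all, against 5.95% of all genes, and downward for 0 members, against 4.35%. The median of members was 0.01 against -0.01 for all genes, with 36 of 69 members above 0, against 48.2% of all genes, and it fell below 0 with upper-quartile scaling (-0.01) or library totals (-0.04), and to -0.00074 without control 3. The median of all genes moved with it, to -0.03, -0.06 and -0.0044, and stayed below that of the members.

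In F1 males no member was called by edgeR, although 9.22% of the 11524 genes tested were (5.74% higher and 3.48% lower). DESeq2 called 1, NDUFV3, against 14.1% of all genes, and the likelihood ratio test 1, COX4I2, against 12.2%. The 8 members with an unadjusted p under 0.05 were all higher with sGC, against 25.2% of all genes (12.5% higher and 12.6% lower). No member had groups that stood apart, against 4.22% of all genes upward and 2.04% downward. NDUFV3, an accessory subunit of the NADH-binding end of complex I, stood at 77.9, 81.1, 69.9, 69.5 and 74.2 CPM in controls and at 80.7 to 83.6 CPM, with a median of 82.3 CPM, with sGC. Only the highest control reached the sGC range, at a log2 fold change of 0.14 (SE 0.04, edgeR FDR = 0.0567). Without control 2 it was called (log2 fold change 0.18, edgeR FDR = 0.0249). Ndufb11, an accessory subunit of the membrane arm, had a log2 fold change of 0.15 (SE 0.05, edgeR FDR = 0.0923), with controls from 55.9 to 66.8 CPM and sGC animals from 65.6 to 73.6 CPM.

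COX4I2, the second isoform of complex IV subunit 4, is known from lung and, in brain, from pericytes. In F1 males it stood at 1.75, 1.44, 1.70, 1.73 and 1.57 CPM in controls and at 1.53 to 2.99 CPM, with a median of 2.43 CPM, with sGC. Of the 6 sGC males, 5 lay above every control. The log2 fold change was 0.51 (SE 0.16, edgeR FDR = 0.0675), the highest of any member in any table, on 41 to 82 reads per animal. Without sGC animal 3 it was called (log2 fold change 0.61, edgeR FDR = 0.0214). The summed pericyte markers ranged from 183 to 238 CPM in control males and from 192 to 279 CPM in sGC males, and 0 of 7 were called by edgeR, with 0 at an unadjusted p under 0.05. In females COX4I2 had log2 fold changes of 0.17 (F1), -0.20 (F2) and -0.13 (F3), with SEs from 0.16 to 0.27.

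As in F2 females, most members of F1 males were slightly above 0. This was so for 55 of 68, against 50% of all genes, with a median of 0.05 against a median for all genes of 0.00 to 2 decimals. All 6 core subunits of complex I and all 3 genes of complex II were above 0 with TMM scaling, while with upper-quartile scaling 5 of the 6 core subunits were. The summed level was 9707 ± 406 CPM in 5 controls and 10045 ± 403 CPM in 6 sGC males, with overlap (SD).

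**Figure D3:**
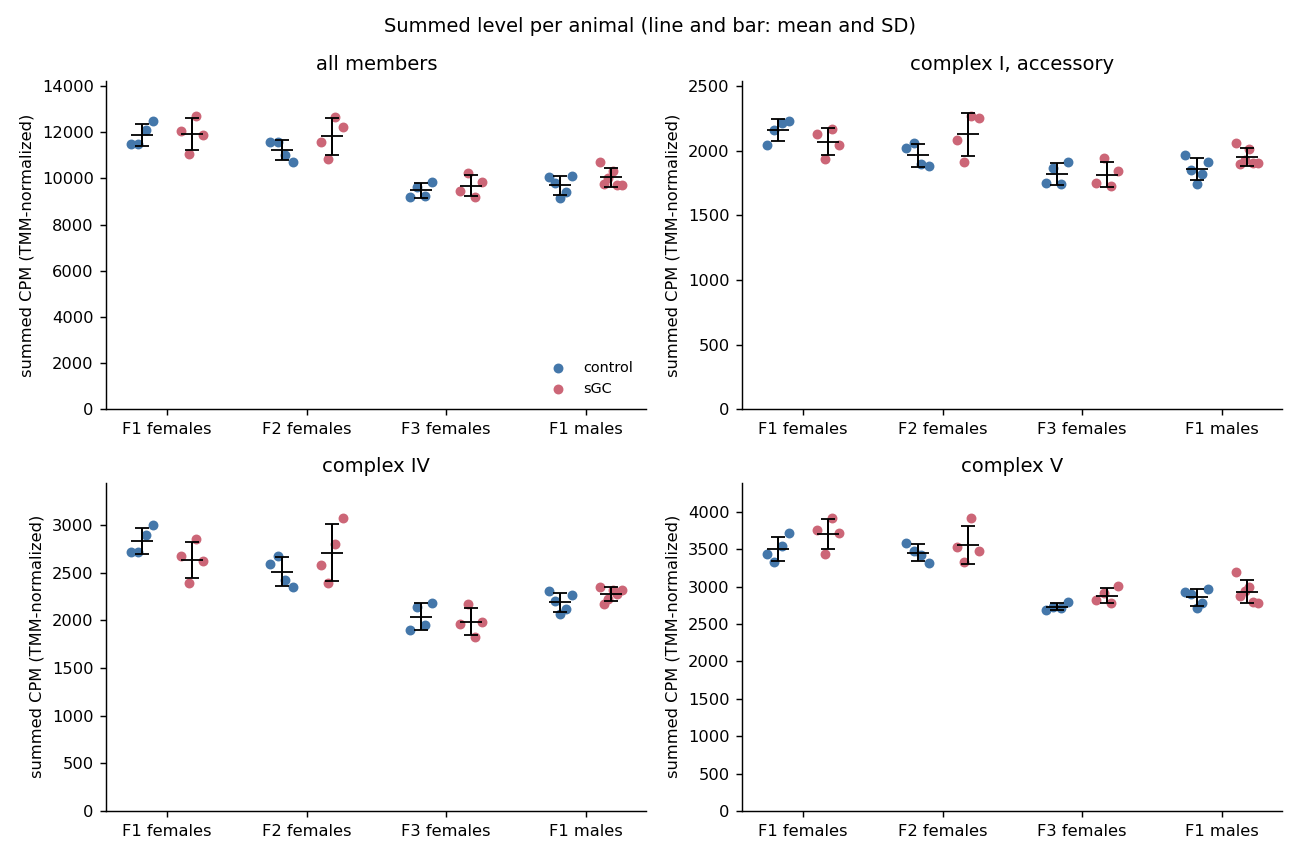
Summed TMM-normalized CPM (vertical axis, from 0) of all members, of the accessory subunits of complex I, of complex IV and of complex V in each animal, by group and treatment. Points are animals, and lines with bars are means with SD. Sums of sGC and control animals overlap for all members in each of the 4 groups, for example 11495 to 12480 CPM in F1 female controls against 11050 to 12697 CPM with sGC.

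The tissue isoforms of complexes IV and V allow genes of like function to be set side by side. COX4I1, the general isoform of complex IV subunit 4, had log2 fold changes of -0.14, 0.18, -0.13 and 0.10 in F1, F2 and F3 females and F1 males. COX6A1 and COX6B1, general isoforms of other small subunits, were at -0.19 and -0.17 in F1 females and within 0.16 of 0 elsewhere. COX7A2 was at -0.13 in F1 females and within 0.07 of 0 elsewhere. None of these 4 was called in any table by edgeR. COX7A1, the isoform of heart and skeletal muscle, ranged from -0.11 to 0.21. COX6B2, the isoform of testis, ranged from -0.37 to -0.02, on 15 to 77 reads per animal. Atp5g3, which like ATP5G2 encodes the c subunit of complex V, was at 0.07, 0.02, 0.10 and 0.00 in the same order. COX6A2, COX7B, COX8A, ATP5G1 and SDHD were not analysed here.

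None of the catalytic and core genes was called by edgeR in any table. UQCRFS1, NDUFS1 and UQCRC1, described above, had the highest log2 fold changes among those named, in F1 females. NDUFS8, a core subunit that carries iron-sulfur clusters, was at -0.17 in F1 females and 0.11 in F1 males and was named after its values were seen. ATP5A1 and ATP5B, the alpha and beta subunits of the complex V head, had log2 fold changes of 0.14 and 0.12 in F1 females, 0.04 and 0.03 in F2 females, 0.11 and 0.09 in F3 females and 0.04 and 0.03 in F1 males. SDHA and SDHB, the flavoprotein and the iron-sulfur subunit of complex II, lay between -0.07 and 0.07 in all groups. CYC1, the heme-bearing cytochrome c1 of complex III, lay between -0.00 and 0.13, and UQCRC2, a core protein of complex III, between -0.04 and 0.11. NDUFV1, which binds the flavin that accepts electrons from NADH, lay between 0.02 and 0.07. Over the 4 groups, 53 of 69 members stayed within 0.2 of 0 in every table, and 14 within 0.1. An absolute log2 fold change of at least 0.3 was reached in any table by 7 members, which were ATP5SL, COX4I2, COX6B2, NDUFA3, NDUFA4L2, NDUFAF2 and NDUFAF5.

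The precision of these small values can be given as intervals. The 95% interval of the log2 fold change excluded changes of more than 1.5-fold in either direction for 65 members in F1 females, 65 in F2 females, 68 in F3 females and 66 in F1 males. The median spread between animals of a group was lower for the members than for all genes in their range of levels, members included. In F1 females their median SD on the log2 scale was 0.09, against 0.14 for the 10738 genes in that range. It was 0.11 against 0.13 in F2 females, 0.10 against 0.12 in F3 females and 0.08 against 0.11 in F1 males. The range, 1.51 to 1166 CPM in F1 females, held most of the 11268 genes tested, so genes were not matched by level.

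Whether the response differed between groups was tested as an interaction, the log2 fold change in 1 group minus that in another. Each comparison was made with F1 females, so that the 3 comparisons share the same 8 animals. Group and table cannot be told apart in them, nor can depth in the comparison with males, whose libraries were deeper. The depths of the female groups overlapped. The log2 fold changes were estimated again in the joint fit, so an interaction can differ slightly from the difference of the values above.

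Between F1 males and F1 females, the response of 14 of 68 members differed, or 20.6%, against 31.7% of the 11274 genes tested. It was higher in males for 13 and lower for 1, NDUFAF4, against 16% and 15.6% of all genes. At an unadjusted p under 0.05 there were 25, against 42.2% of all genes. NDUFA3 had log2 fold changes of 0.04 in males and -0.38 in females, an interaction of 0.41 (SE 0.10, edgeR FDR = 0.00330). ATP5G2 had 0.15 and -0.19 (interaction 0.33, SE 0.09, edgeR FDR = 0.00698), and Ndufb11 had 0.15 and -0.14 (0.28, SE 0.07, edgeR FDR = 0.00725). All 14 had log2 fold changes of opposite sign in the groups, as did 39 of the 68 members. Selection by a difference in response favours opposite signs. Some of the male values were near 0, such as 0.01 for NDUFA4L2 and 0.02 for NDUFB7. In males, none of the 14 was called on its own. Without F1 female controls 1 and 4, 10 members differed, against 31.9% of all genes.

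**Figure D4:**
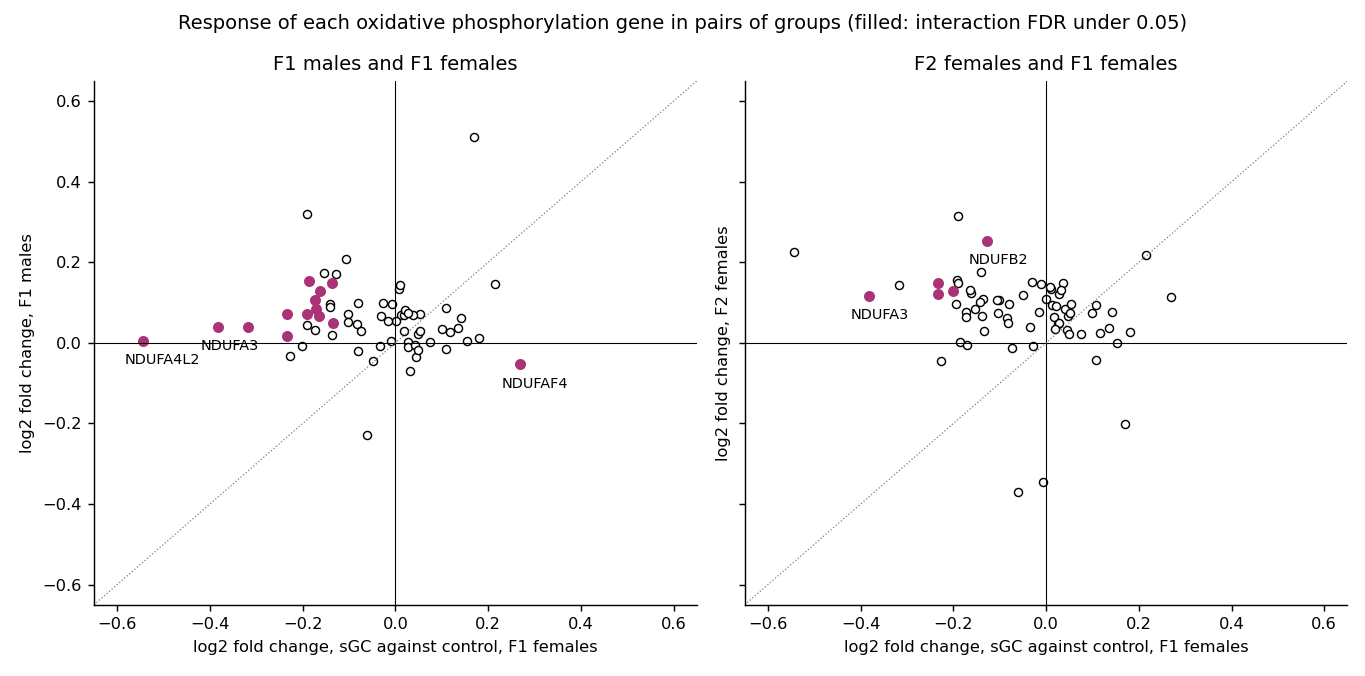
Log2 fold change of sGC against control of each member in F1 females (horizontal axis) and in F1 males or F2 females (vertical axes). The dotted line marks equal responses, and filled points had an interaction with an FDR under 0.05. Of the 14 filled points on the left, 13 lie at negative values for females and positive values for males, and all 5 on the right lie at negative values for F1 and positive values for F2 females.

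Between F2 and F1 females, the response of 5 of 69 members differed, or 7.25%, against 13.8% of the 11166 genes tested, and was higher in F2 females for all 5, against 6.75% of all genes higher and 7% lower. At an unadjusted p under 0.05 there were 18, against 30.7% of all genes. NDUFA2 had log2 fold changes of 0.13 in F2 and -0.20 in F1 females (interaction 0.32, SE 0.09, edgeR FDR = 0.0279), NDUFB2 had 0.25 and -0.13 (0.37, SE 0.11, edgeR FDR = 0.0299), and NDUFA3 had 0.12 and -0.38 (0.49, SE 0.14, edgeR FDR = 0.0332). The others were NDUFB7 and NDUFAF7, a methyltransferase that modifies a complex I core subunit. Without F1 female controls 1 and 4, only NDUFB2 passed the test, against 17.6% of all genes, with the 5 interactions from 0.28 to 0.47. Without F1 female control 3 no member did, against 8.46% of all genes. The 5 interactions were then from 0.30 to 0.44 (edgeR FDR 0.0638 to 0.103). The direction of all 5 was kept in both cases.

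Between F3 and F1 females, edgeR called no member, against 0.0981% of the 11212 genes tested (0.0535% higher and 0.0446% lower). Neither did DESeq2, against 1.87% of all genes, or the likelihood ratio test, against 1.02%. NDUFA4L2, with log2 fold changes of -0.06 in F3 and -0.54 in F1 females, was the 1 member with an unadjusted p under 0.05, against 15.8% of all genes (interaction 0.46, SE 0.21, edgeR FDR = 0.302). NDUFAF7 had an interaction of 0.18 (SE 0.10, edgeR FDR = 0.380) and NDUFA3 one of 0.27 (SE 0.15, edgeR FDR = 0.383).

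Other genes of mitochondrial and energy metabolism were followed as lists. In F1 females, 2 of 15 genes of the tricarboxylic acid cycle rose, SUCLA2 and DLD, and 0 fell, but with upper-quartile scaling or library totals 0 rose and 1 fell. Of 68 proteins of the mitochondrial ribosome, 2 rose and 1 fell, at a median log2 fold change of -0.002. With RLE scaling 3 rose and 0 fell (median 0.01), and with upper-quartile scaling 1 rose and 4 fell (-0.04). With library totals 0 rose and 8 fell (-0.08). Of 28 assembly factors of complexes II to V, LRPPRC, which stabilizes mitochondrial mRNA, rose and COX20, a factor of complex IV, fell. Of 13 carriers, 1, the outer membrane channel VDAC2, rose. These genes were named after their values were seen.

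Regulators of mitochondrial gene expression were mostly below the threshold. GABPA, a subunit of the transcription factor that binds many promoters of respiratory chain genes, fell in F1 females (log2 fold change -0.41, SE 0.12, edgeR FDR = 0.0489), and was the only one of 12 called there. PPARGC1A, a coactivator of mitochondrial biogenesis, had a log2 fold change of 0.22 (SE 0.14, edgeR FDR = 0.289) in F1 females. TFAM, which packages and transcribes mitochondrial DNA, was at -0.10 (SE 0.12), NRF1 at -0.05 (SE 0.10) and ESRRA at -0.03 (SE 0.05), none called. In the other 3 groups, 0 regulators, 0 genes of the tricarboxylic acid cycle, 0 proteins of the mitochondrial ribosome and 0 assembly factors of complexes II to V were called, and 1 carrier was, as lower in F1 males. CYCS was not analysed here.

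Glycolysis and the cytosolic ribosome stood further from 0 than the members in F1 females. Of 14 glycolytic genes, 10 rose and 0 fell (median log2 fold change 0.27), and without controls 1 and 4 it was 9 (median 0.33). Of 48 cytosolic ribosomal proteins, 33 fell and 0 rose (median -0.24), and without controls 1 and 4 the median was -0.21 and 8 were called. In F2 females the medians were 0.00 and 0.07, in F3 females 0.13 and -0.12, and in F1 males -0.04 and 0.06. In those 3 groups, 1 glycolytic gene (in F3 females) and 0 ribosomal proteins were called.

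**Figure D5:**
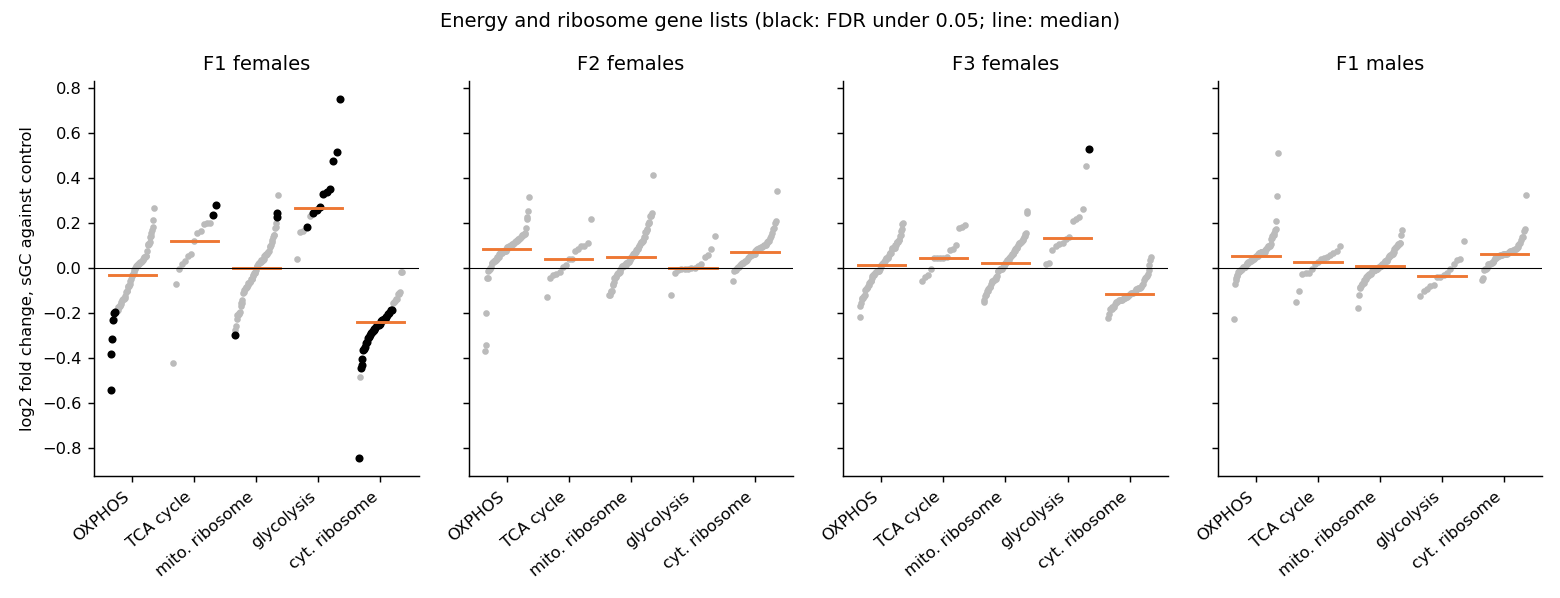
Log2 fold change of sGC against control (vertical axis) of each gene of 5 lists (horizontal axis: oxidative phosphorylation, tricarboxylic acid cycle, mitochondrial ribosome, glycolysis and cytosolic ribosomal proteins) in each group. Black points had an FDR under 0.05, grey points did not, and the orange line is the median of the list. In F1 females the medians are -0.03 for oxidative phosphorylation, 0.27 for glycolysis and -0.24 for cytosolic ribosomal proteins.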

How the data were processed

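The authors deposited raw counts of reads for each gene symbol in 4 tables, 1 each for F1, F2 and F3 females and F1 males. The submitters' processing notes name TopHat2 and edgeR. The read counter, genome build and annotation are not given in the sources used here. In the same tables the authors deposited log2 fold changes, tagwise dispersions, mean log2 CPM, likelihood ratio scores, p-values and FDR of their own comparisons, none of which were used.

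The packages edgeR 4.0.16, DESeq2 1.42.0 and limma 3.58.1 were run under R 4.3.3. Genes were kept by filterByExpr (minimum count 10, minimum total count 15), scaled by TMM and tested with the quasi-likelihood test, in place of the study's likelihood ratio test, within each table, with Benjamini-Hochberg adjustment over all genes. Interactions were fitted over pairs of tables. The likelihood ratio test, DESeq2, other scalings, no filter, fits with a replicate block or over all groups at once, and the omission of each animal were alternatives. The omission of F1 female controls 1 and 4 or of F3 female control 3, the medians by complex under other scalings and the pericyte list were added after seeing the data. Genes that were named were members called in a table, up to 8 (4 highest and 4 lowest), or otherwise the 3 smallest p, the 3 smallest p of each interaction, tissue isoforms, catalytic or core subunits, and PPARGC1A, TFAM, NRF1, GABPA, ESRRA and CYCS. Others were named after their values were seen. The members and lists were chosen with earlier results of these data known, so no list was tested. Scripts were tested on simulated data for each table. In those for F1 females, the likelihood ratio test and DESeq2 made more false calls than the FDR threshold allows, so members called by these tools alone are less certain. The quasi-likelihood test also exceeded that threshold, slightly for F1 females and by more for the interaction of F1 males with F1 females. Its calls close to the threshold are therefore less certain too. The recovery required of the simulation was lowered after F1 females and the interaction had missed it. P-values set the difference between sGC and control animals against the spread between animals. Whether F2 or F3 females shared a sire or a treated ancestor is not given in the sources used here. Their independence as replicates of the exposure could therefore not be checked. No 2 libraries were identical.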

Additional observations from a re-analysis of the deposited data

Results flagged for a closer look

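The response to sGC differed between F1 males and F1 females, by edgeR's interaction test at an FDR under 0.05, for 14 members. These were 20.6% of the 68 members tested, against 31.7% of all genes. The interaction on the log2 scale, male response minus female response, was 0.54 for NDUFA4L2, 0.41 for NDUFA3, 0.35 for ATP5SL, 0.33 for ATP5G2, 0.30 for NDUFAF7, 0.28 for NDUFA13, 0.28 for Ndufb11, 0.27 for NDUFS8, 0.26 for COX6A1, 0.25 for SDHC, 0.24 for NDUFB7, 0.22 for NDUFB9, 0.18 for COX7A2 and -0.33 for NDUFAF4. Between F2 and F1 females it was 0.49 for NDUFA3, 0.37 for NDUFB2, 0.37 for NDUFAF7, 0.35 for NDUFB7 and 0.32 for NDUFA2. These were 7.25% of the 69 members tested, against 13.8% of all genes.

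In 1 of 94 groups of animals examined, 1 animal stood far from the others, where chance gives about 1 in 20. This was control 1 of the F3 females, whose summed level of complex II was 475 CPM, against 503 CPM in the next animal.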

How the results depend on the processing

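In F1 females the count of members called was 6. With the share of all genes called in brackets (16.5% in the main test), it was 3 with the likelihood ratio test (18.6%) and 10 with upper-quartile scaling (16.8%). It was 19 with library totals only (20.6%), 1 with the replicate block (NDUFA4L2, 9.58%) and 12 in a single fit of all groups (30.4%). Without controls 1 and 4, added after seeing the data, it was 1 (15.1%). It was 8 with DESeq2 (21.5%), 5 with RLE scaling (16.8%) and 6 with no filter (16%). The median log2 fold change was -0.11 with library totals. In F2 females the likelihood ratio test called 1 member (4.8% of all genes), and in F1 males this test (12.2%) and DESeq2 (14.1%) called 1 each. For F1 males against F1 females, 27 interactions were called with library totals (32.9%) in place of 14 (31.7%), and 20 with upper-quartile scaling (31.6%). There were 12 in the single fit (33.1%), 10 with the replicate block (26.9%) and 10 without F1 female controls 1 and 4 (31.9%). For F2 against F1 females, the 5 (13.8%) became 3 with RLE scaling (14%), 11 with upper-quartile scaling (13.7%) and 14 with library totals (13.9%). They became 0 with the replicate block (9.56%), 8 in the single fit (21.8%) and 1 without F1 female controls 1 and 4 (17.6%). The causes were not tested.

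Leaving out each animal in turn gave 0 to 6 members called in F1 females, against 5.42% to 18.7% of all genes. It gave 0 in F2 females (0% to 4.36% of all genes) and 0 in F3 females (0.175% to 5.22%). In F1 males it gave 0 to 1 (5.8% to 14%), where the 1 was called without control 2 or without sGC animal 3. Against F1 females, it gave 11 to 18 interactions for F1 males (26.7% to 32.1% of all genes). For F2 females there were 0 to 9 (7.23% to 17.1%) and for F3 females 0 (0.00891% to 0.865%). Medians ranged from -0.05 to 0.01 in F1 females, 0.04 to 0.12 in F2 females, -0.01 to 0.04 in F3 females and 0.03 to 0.07 in F1 males. Counting each single-gene result once for each alternative, 693 of these values stayed on the same side of the threshold in the same direction, 148 were no longer past it and 5 came past it.

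Replicate numbers were shared between groups, but same-numbered animals did not deviate together (correlations from -0.33 to 0.36 over the pairs), so the replicate block rests on a number alone. The median SE of the members' log2 fold changes was 0.07 in F1 females, 0.08 in F2 females, 0.07 in F3 females and 0.05 in F1 males, which had both more animals and deeper libraries.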
